A study of Homo sapiens with 6 samples.

Results

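The gene set described here holds 10 genes that mark or drive the epithelial-mesenchymal transition (EMT), the change by which epithelial cells lose their cell-cell junctions and take on a motile, matrix-producing form. It comprises the transcription factor genes SNAI1, SNAI2, TWIST1, TWIST2, ZEB1, ZEB2 and PRRX1, the cadherin genes CDH2 and CDH11, and the fibronectin gene FN1. Members were chosen by name, and each of the 10 matched 1 of the 25706 gene rows in the deposited table. The study sequenced polyadenylated RNA, captured on oligo(dT) beads, from MDA-MB-231, an established human line of triple-negative breast cancer. Of its 6 libraries, 3 came from cells overexpressing tsRNA-Gly-5-0006, which by its name is a fragment of a glycine tRNA, and 3 came from control cells of the same line. The labels do not say by what construct the RNA was overexpressed, what the control cells carried, at what time the cells were taken, or whether the replicates were separate cultures. The p-values therefore measure only the spread between these samples, which may be technical. The study set out to observe the phenotype of the overexpressing cells, and the comparison here asks whether the EMT regulators and their cadherins differ in mRNA level.

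The deposited counts, which are estimates and not tallies of reads, summed to between 54371226 and 74586916 per library. Levels are given in FPKM, the authors' fragment count scaled to transcript length and to sequencing depth. That scale is per length, so genes of unlike length can be set beside each other. Library levels also varied with GC content, as given further on, and the order of genes was not adjusted for it. The line was checked against its markers: VIM, the intermediate filament of mesenchymal cells, had between 365 and 460 FPKM, and CDH1, which encodes E-cadherin, had at most 0.0424 FPKM. Of the luminal or other epithelial markers, ESR1, FOXA1 and ESRP1 had no row and were not analysed here, whereas KRT19, KRT8 and KRT18 averaged 2083, 580 and 499 FPKM in control. The library labelled overexpression 1 stood apart from the other 5. It lay at least 2-fold above every other library in 6.34% of the 15951 genes tested, and this share was between 0.138% and 0.270% for each of the other 5 libraries. The fold changes of the tested members and the counts and medians of the gene lists are given with and without it.

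As background, SNAI and ZEB proteins are zinc-finger repressors that bind the E-box letters CACCTG or CAGGTG in promoters such as that of CDH1, and TWIST proteins are basic helix-loop-helix factors that bind a broader form of the E-box. PRRX1 is a homeobox factor of mesenchymal cells. In the classical cadherin switch, E-cadherin gives way to N-cadherin, the product of CDH2, or to the mesenchymal cadherin-11, while fibronectin is laid down in the matrix. ZEB1 is a well-known marker of basal and claudin-low breast cancer lines.

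Promoter sequence from RefSeq (GRCh38.p14) was examined for 6 members in 13 windows, and SNAI2 was left out of this search. Of these, 2 stretches are shown. ZEB1 is shown because its own promoter holds the E-box read by its protein family, and FN1 because it had the most counts of all members in every library. Both lie before the start of the gene and run 5′ to 3′ on the gene's strand. In ZEB1 (chr10:31318167-31318416, plus strand) the capitals mark the E-box, whose first base lies 57 bases before one of the annotated starts. In FN1 (chr2:215436173-215436318, minus strand) they mark TGACGTCA, the cyclic AMP response element for which this promoter is known, which begins 183 bases before the start.
ZEB1: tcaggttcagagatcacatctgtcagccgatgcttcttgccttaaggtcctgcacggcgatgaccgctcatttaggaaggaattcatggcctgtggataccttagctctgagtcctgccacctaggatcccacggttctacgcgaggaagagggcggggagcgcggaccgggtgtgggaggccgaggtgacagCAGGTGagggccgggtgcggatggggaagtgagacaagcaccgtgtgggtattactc
FN1: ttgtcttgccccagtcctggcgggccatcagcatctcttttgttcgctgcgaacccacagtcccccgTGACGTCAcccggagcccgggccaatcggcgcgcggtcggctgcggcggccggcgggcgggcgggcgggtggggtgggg

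The letters CACCTG or CAGGTG, which are the 2 strands of 1 motif, were found in 2 of the 7 ZEB1 windows and in none of the windows of PRRX1, ZEB2, FN1, TWIST2 or CDH2. Among all 35116 promoter windows of 250 bases they occurred in 17.5%, and TGACGTCA, which reads the same on both strands, in 1.65%. A match describes these letters and is not evidence of binding.

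In the control cells, 3 of the 10 members averaged at least 1 FPKM. The order of mean levels was FN1, CDH11, SNAI1, SNAI2, ZEB1, ZEB2 and CDH2, and TWIST1, TWIST2 and PRRX1 were listed at 0 in all 3 control libraries. FN1 averaged 1.68 ± 0.148, CDH11 1.63 ± 0.207 and SNAI1 1.40 ± 0.318 FPKM (SD, n = 3), and the ranges of neighbours among these 3 overlapped. SNAI2 followed at 0.794 ± 0.232 FPKM, ZEB1 at 0.130 ± 0.0422 and ZEB2 at 0.0367 ± 0.00748 (SD, n = 3). SNAI2, ZEB1, ZEB2 and CDH2 each lay below the range of the gene before them in the control libraries. With all 6 libraries the ranges of SNAI1 and SNAI2 overlapped, as did those of ZEB2 and CDH2. The control means of FN1, CDH11 and SNAI1 were higher than those of 74.2%, 74.0% and 72.5% of all rows, that of ZEB1 than 46.8% and that of CDH2 than 19.4%, while VIM stood above 99.5%.

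**Figure D1:**
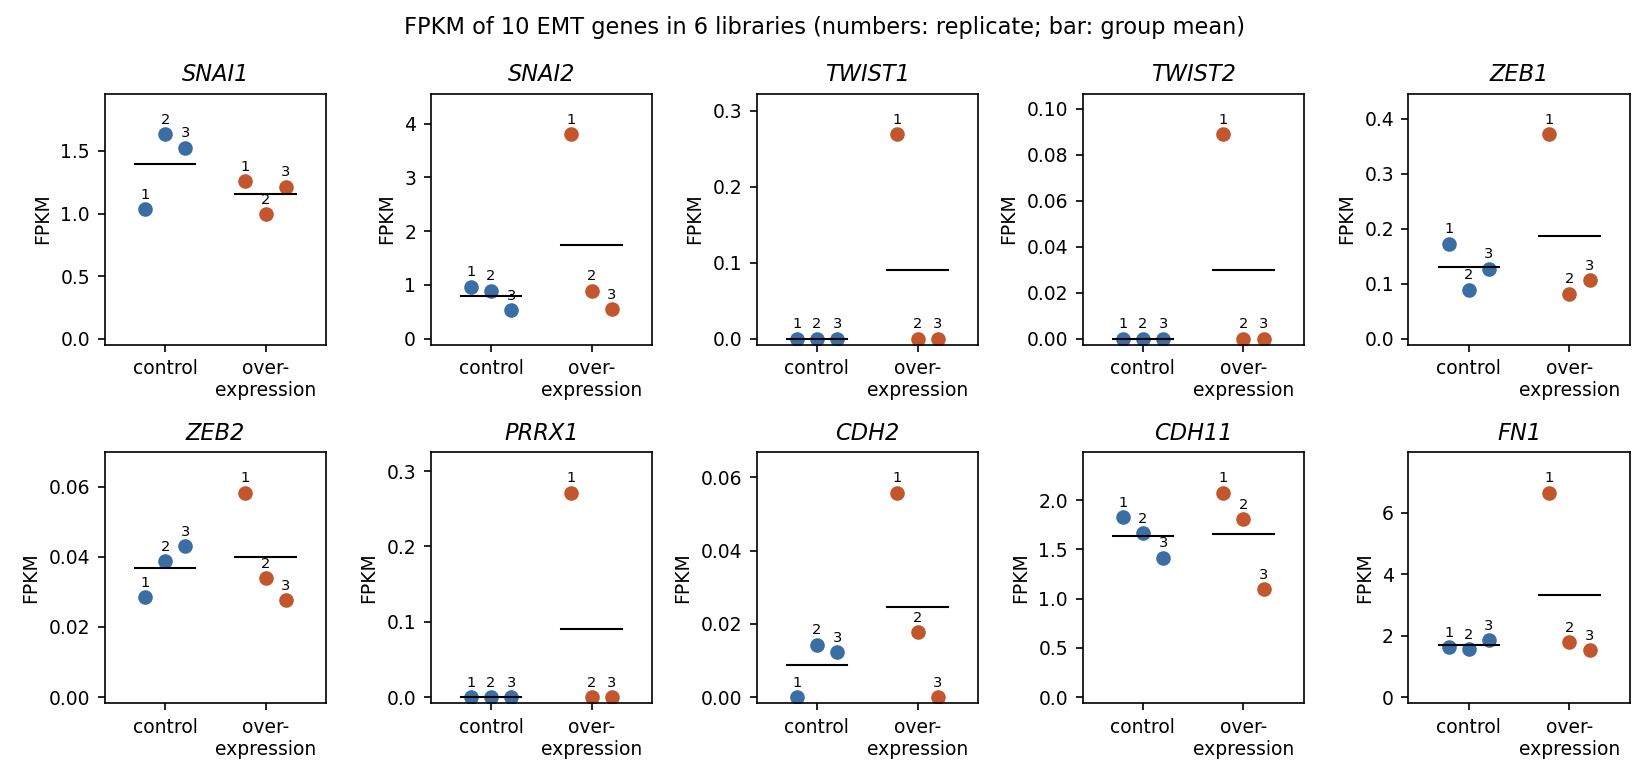
FPKM of the 10 members in each library, with a separate linear vertical axis per gene that includes 0; points are libraries numbered by replicate and bars are group means. Overexpression 1 was the highest library for 9 of the 10 genes, the exception being SNAI1, and TWIST1, TWIST2 and PRRX1 were listed at 0 in the other 5 libraries.

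The SNAI genes differed from each other in how they varied over the libraries. SNAI1, whose short-lived protein represses CDH1 (ENSG00000124216, hg38 chromosome 20, 49982980 to 49988886), had 1.04, 1.63 and 1.52 FPKM in control 1, 2 and 3, against 1.26, 0.996 and 1.21 FPKM in overexpression 1, 2 and 3. These groups overlapped, and overexpression 1 lay inside the range of the others. SNAI2, which encodes SLUG, a repressor also found in basal mammary cells (ENSG00000019549, chromosome 8, 48917598 to 48921440), had 0.965, 0.887 and 0.529 FPKM in the controls, against 3.80, 0.889 and 0.551 FPKM with overexpression. Overexpression 1 was 3.94-fold above the next library, and overexpression 2 and 3 lay within the range of the controls. In bulk RNA, more cells of a type and more RNA per cell cannot be told apart, and the marker levels and GC content that moved with this library are given further on. The relative SNAI3, named as a reference point, had between 0.243 and 0.578 FPKM.

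TWIST1, a factor of mesoderm development (ENSG00000122691, chromosome 7, 19020991 to 19117118), had 0.269 FPKM from 43 deposited counts in overexpression 1 and was listed at 0 in each of the other 5 libraries. Its relative TWIST2 (ENSG00000233608, chromosome 2, 238848032 to 238910534) had 0.0889 FPKM from 15 counts there, and it too was listed at 0 in the other 5. PRRX1 (ENSG00000116132, chromosome 1, 170662728 to 170736508) showed the same distribution, with 0.271 FPKM from 179 counts in overexpression 1. Thus these 3 factors had a value in 1 of 6 libraries. A count above 0 in overexpression 1 alone was found for 4.01% of all 25706 rows, while the corresponding share was between 1.59% and 2.34% for each of the other 5 libraries. With at least 15 counts, as these 3 genes had, 133 of the 25706 rows were confined to overexpression 1. Each of the other 5 libraries had between 4 and 13 such rows. No fold is given for these genes, since the control libraries were listed at 0. They did not pass the filter on low counts, and in a fit without that filter their adjusted p was 0.773 with edgeR. The unadjusted p of PRRX1 in that fit was 0.0492, and 855 of its 25706 genes had an unadjusted p under 0.05. Without overexpression 1 all 3 genes were listed at 0 in every library, so nothing was left to test.

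ZEB1, a zinc-finger homeobox repressor of epithelial genes (ENSG00000148516, chromosome 10, 31318495 to 31529814), had 0.173, 0.0887 and 0.127 FPKM in the controls, against 0.372, 0.0816 and 0.106 FPKM with overexpression. The value in overexpression 1 was 2.15-fold above the next library, while overexpression 2 lay just below the control range and overexpression 3 inside it. On the opposite strand ZEB1-AS1 overlaps its start, with 16 to 61 counts against 47 to 254 for ZEB1, and the counting strand is not given in the sources used here. Reads in the stretch that this pair shares can therefore not be told apart. The pseudogene row SPTLC1P1, on the same strand inside ZEB1, had 2 to 12 counts. ZEB2, its paralogue (ENSG00000169554, chromosome 2, 144364364 to 144521057), had 0.0284, 0.0387 and 0.0430 FPKM in the controls, against 0.0583, 0.0340 and 0.0276 FPKM with overexpression, so that the groups overlapped at a level below that of ZEB1 in every library.

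Neither of the cadherins of the classical switch exceeded 0.0558 FPKM in any library. CDH2, encoding N-cadherin (ENSG00000170558, chromosome 18, 27932879 to 28177946), had 0, 0.0143 and 0.0122 FPKM in the controls, against 0.0558, 0.0177 and 0 FPKM with overexpression. These values rest on at most 39 counts per library, and an antisense row, ENSG00000227279, overlaps the gene with 6 to 23 counts. CDH1 had between 0 and 0.0424 FPKM, which overlapped the values of CDH2. CDH11, encoding the mesenchymal cadherin-11 (ENSG00000140937, chromosome 16, 64943753 to 65126112), had 1.83, 1.66 and 1.41 FPKM in the controls, against 2.07, 1.81 and 1.09 FPKM with overexpression. CDH11 was thus higher than CDH1 and CDH2 in all 6 libraries, and its groups overlapped. The row ENSG00000278893, on the same strand inside CDH11, had 1 count in each library. Of the 12 cadherin genes with a row among those examined, CDH24 had the highest level, at 3.15 to 3.64 FPKM, followed by CDH11 and by CDH4 at 0.604 to 0.912 FPKM. The placental cadherin CDH3 had at most 0.0698 FPKM, and CDH13, which encodes the membrane-anchored T-cadherin, had 0.278 FPKM in overexpression 1 and was listed at 0 in the other 5 libraries.

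**Figure D2:**
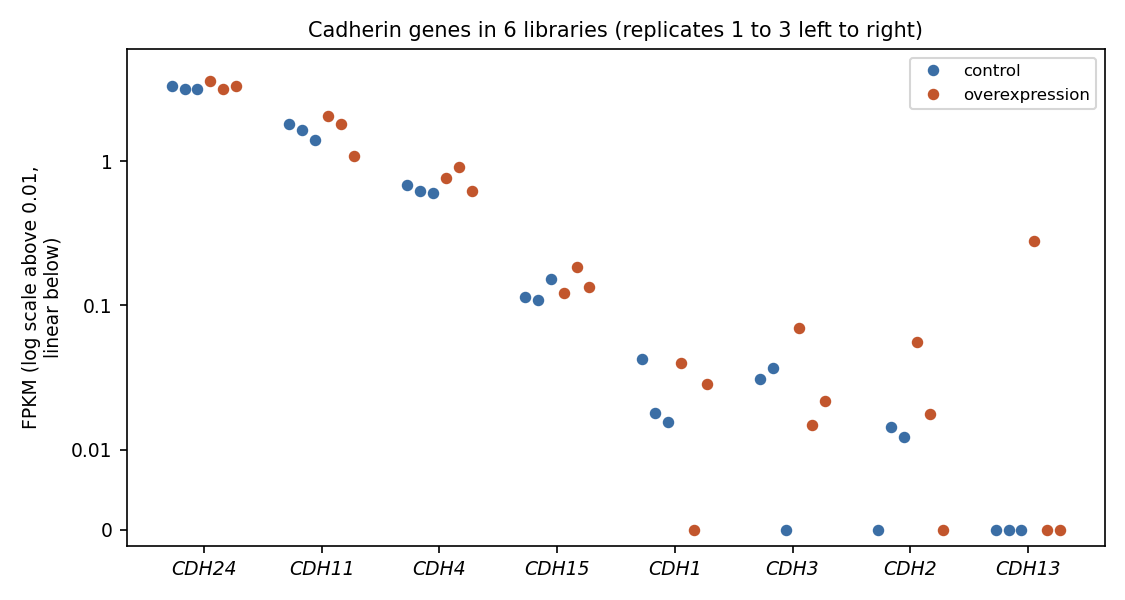
FPKM of 8 cadherin genes in each library on a vertical axis that is logarithmic above 0.01 and linear below it; points are libraries, coloured by group, with replicates from left to right. CDH24, CDH11 and CDH4 lay above CDH1, CDH3 and CDH2 in all 6 libraries, and CDH13 had a value in overexpression 1 alone.

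FN1, which encodes the matrix glycoprotein fibronectin (ENSG00000115414, chromosome 2, 215360440 to 215436073), had 1.63, 1.56 and 1.85 FPKM in the controls, against 6.65, 1.79 and 1.52 FPKM with overexpression. Overexpression 1 was 3.60-fold above the next library, and the other 5 libraries lay between 1.52 and 1.85 FPKM. Without overexpression 1 the group means were 1.68 and 1.65 FPKM.

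No member passed the test of overexpressing against control cells. For 6 of the 10, enough counts were available for the edgeR quasi-likelihood test, and 0 of these 6 had a Benjamini-Hochberg adjusted p under 0.05, against 0% of all 15951 genes tested. An unadjusted p under 0.05 was reached by 0 of the 6 and by 3.83% of all tested genes (2.56% higher and 1.27% lower with overexpression), and DESeq2 and limma passed 0 members as well. SNAI2 had a log2 fold change of 1.07 (overexpression over control, SE 0.66, 95% confidence interval -0.49 to 2.62, adjusted p 0.996), and FN1 had 0.91 (SE 0.51, interval -0.29 to 2.10, adjusted p 0.994). Both intervals include 0 and reach beyond a 4-fold difference. ZEB1 stood at 0.46 (SE 0.57) and ZEB2 at 0.05 (SE 0.33), with intervals from -0.88 to 1.80 and from -0.73 to 0.82. SNAI1 had -0.31 (SE 0.25, interval -0.90 to 0.27) and CDH11 -0.04 (SE 0.20, interval -0.51 to 0.43). The FPKM values of control and overexpressing libraries overlapped or were tied for all 10 members, and so for the 6 tested, while 8.22% of tested genes had no such overlap. A positive log2 fold change was found for 4 of the 6 members and for 54.8% of tested genes.

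Leaving out overexpression 1 changed the sign of 4 of the 6 values. Without it SNAI2 had a log2 fold change of -0.18 (SE 0.29, interval -0.84 to 0.49) and FN1 of -0.06 (SE 0.13, interval -0.35 to 0.24). ZEB1 was then at -0.47 (SE 0.38) and ZEB2 at -0.31 (SE 0.34), while SNAI1 remained negative at -0.36 (SE 0.27) and CDH11 at -0.22 (SE 0.18). All 6 estimates were thus below 0 in the remaining 5 libraries, and each of the 6 had an adjusted p of 0.9999 with edgeR. Of all tested genes 51.5% had a positive value there, but that share was not matched for the GC content of the members, which is given further on. The adjusted test passed 0 of the 6 and 0.0251% of all tested genes in those 5 libraries, and an unadjusted p under 0.05 was reached by 0 of the 6 and by 2.73% (1.26% higher and 1.47% lower). The groups overlapped or were tied for all 10 members, and so for the 6 tested, and did not overlap for 15.4% of tested genes. TWIST1, TWIST2 and PRRX1, at 0 in all 5 libraries, could not separate. For FN1 the interval of these 5 libraries was narrow, with an upper bound of 0.24. These libraries leave out the highest FN1 value, so that bound is not a separate test of the estimate of 0.91 obtained with all 6.

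**Figure D3:**
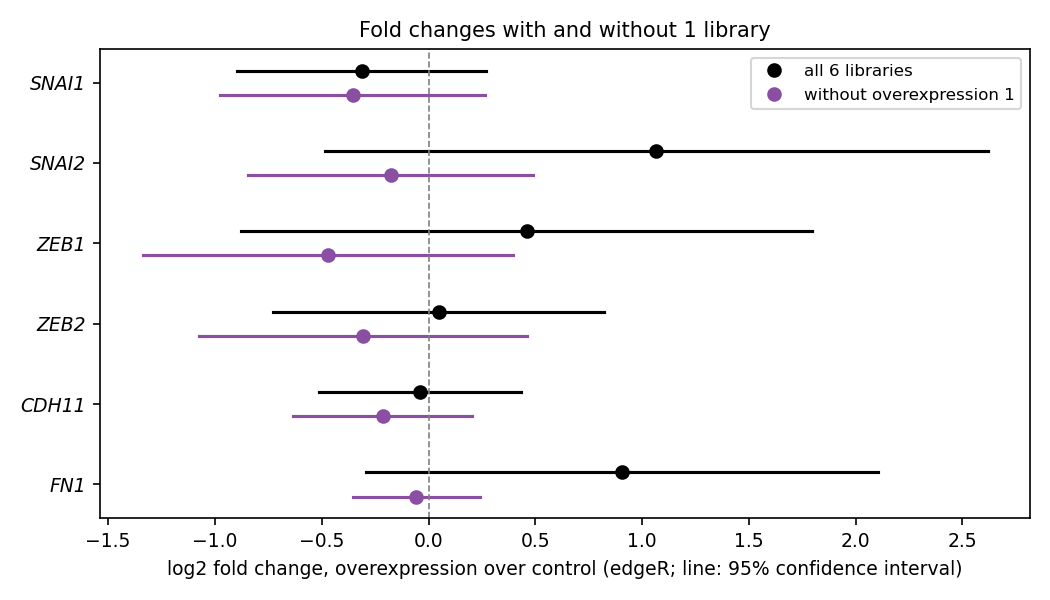
Log2 fold change of the 6 tested members, overexpression over control, on the horizontal axis, with lines for 95% confidence intervals from the edgeR fit; black marks all 6 libraries and purple the fit without overexpression 1. All 12 intervals include 0, and the points of SNAI2, ZEB1, ZEB2 and FN1 change from positive to negative.

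Overexpression 1 was the highest library for 5 of the 6 tested members, against 30.9% of all tested genes, and it was at least 2-fold above every other library for 3 of them (SNAI2, ZEB1 and FN1), against 6.34%. Markers of fibroblasts moved with it. Of 18 such markers 17 had a row, and 4 of these are members of the present set (PRRX1, TWIST2, ZEB2 and CDH11). The other 13 summed to between 1.62 and 1.73 FPKM over the controls, and reached 18.2 FPKM in overexpression 1 against 1.89 and 1.33 FPKM in overexpression 2 and 3. Of the 13, 12 were highest in overexpression 1. COL3A1, DCN and FAP, which encode a fibrillar collagen, decorin and fibroblast activation protein, were listed at 0 in the other 5 libraries. SPARC, a matrix glycoprotein, had 2.69 FPKM in overexpression 1 and at most 0.0583 in the others, and COL1A1, a chain of type I collagen, had 4.69 against at most 0.182. The summed markers of luminal or other epithelial cells, of basal or myoepithelial cells and of leukocytes and endothelium lay in overexpression 1 within the range of the other libraries, as did those of the MDA-MB-231 line. Single abundant genes made up much of some sums. In overexpression 1 CD14 had 14.5 of the 14.7 FPKM of the leukocyte and endothelium list, and KRT19 had 2206 of the 3266 FPKM of the luminal list. S100A6 had 3649 of the 4314 FPKM of the MDA-MB-231 list, and LAMB3 had 41.6 of the 66.8 FPKM of the basal list. PTPRC and CDH5 of the leukocyte and endothelium list and PGR of the luminal list had a value in overexpression 1 alone, as did COL3A1, DCN and FAP. Gene by gene, overexpression 1 was highest for 5 of 8 tested MDA-MB-231 markers and 4 of 9 basal ones. It was highest for 1 of 8 luminal markers and 0 of 3 of leukocytes and endothelium. It was at least 2-fold above every other library for 1 of 8, 2 of 9, 0 of 8 and 0 of 3, in the same order. The part of the fibroblast marker transcripts in the levels of the members was not tested.

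GC content moved with the same library. When the tested genes were divided by GC content into 5 groups of equal size, 23.1% of the group with the lowest GC (at most 41.6%) lay at least 2-fold higher in overexpression 1 than in every other library, and this share was 6.59%, 1.76%, 0.652% and 0.522% in the groups of rising GC content. SNAI2, ZEB1, ZEB2 and PRRX1, with 38.5% to 41.4% GC in their longest transcript, belong to the lowest group, and FN1, CDH11 and CDH2, with 42.2% to 45.0%, to the next. Overexpression 1 was the highest library for 60.5% of genes in the lowest group and 40.9% in the next, against 30.9% of all tested genes. SNAI1, TWIST1 and TWIST2 have 57.0% to 58.2% GC and belong to group 4 from the bottom. Within it the members differed, since TWIST1 and TWIST2 had values in overexpression 1 alone and SNAI1 was at the mean of the other 5 libraries. On the scale of log2(FPKM + 0.1), overexpression 1 exceeded the mean of the other 5 libraries by 2.21 for SNAI2, 1.93 for FN1, 1.15 for ZEB1 and 0.24 for ZEB2, where the median gene of the lowest GC group exceeded it by 0.39 and that of the next by 0.18. The added 0.1 shrinks differences at levels as low as those of ZEB1 and ZEB2, so their values are not directly comparable with these medians. On FPKM alone, overexpression 1 was 3.23-fold the mean of the other 5 for ZEB1 and 1.70-fold for ZEB2. With a GC offset per library in the edgeR fit, the log2 fold changes were 0.83 for SNAI2, 0.72 for FN1, 0.10 for ZEB1 and -0.20 for ZEB2 (SE 0.58, 0.45, 0.49 and 0.26), all with an adjusted p of 0.998. The part of GC content in the levels of the members was not tested beyond this fit, which was not repeated without overexpression 1. The median gene of the lowest and the next GC group deviated by -0.21 and -0.19 in overexpression 3, and by 0.06 and 0.14 in overexpression 2. In control 1, 2 and 3 it deviated by -0.22, -0.04 and -0.18 in the lowest group and by -0.10, 0.04 and -0.12 in the next.

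**Figure D4:**
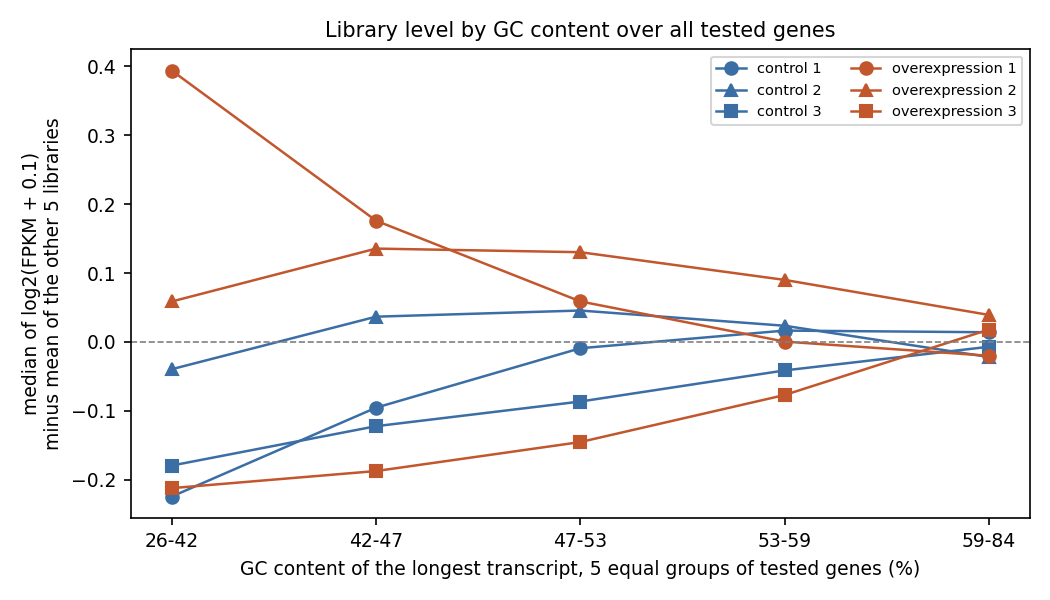
Median over tested genes of log2(FPKM + 0.1) in a library minus the mean of the other 5 libraries, in 5 equal groups by GC content of the longest transcript; lines are libraries, coloured by group. Overexpression 1 is highest in the group of lowest GC (0.39) and close to 0 in that of highest GC (-0.02).

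The genes with the most similar profiles over the 6 libraries were sought for the 5 members whose log2(FPKM + 0.1) spanned at least 1, by the root mean square difference after centring, among 9068 or 9069 genes reaching 1 FPKM in some library. For TWIST1 and PRRX1, at 0 in 5 libraries, the span is set by the pseudocount, and no neighbours are given. Nearest to FN1 were GMCL1, CPD and HBS1L (0.08, 0.09 and 0.10), and nearest to SNAI2 was ZCCHC24 (0.12), with 9.23 FPKM in overexpression 1 and 1.34 to 2.30 elsewhere, before CEP76 and TRIQK (both 0.16). For ZEB1 the nearest were ENSG00000242282 at 0.11, KIF5B at 0.12 and RHEBP1 at 0.14. KIF5B, a kinesin heavy chain gene, had 2.81 FPKM in overexpression 1 against 0.992 to 1.31 in the others. The span of these members comes mostly from overexpression 1, so a high value there in the neighbours follows from the choice and is a description only.

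Other genes of the pathway were described by lists, and 0 genes of any list passed the edgeR test with all 6 libraries or without overexpression 1. The median log2 fold change of all tested genes was 0.02, with 54.8% positive, and 0.01 without overexpression 1. Of the epithelial genes that EMT represses, 12 of 21 were positive (median 0.04), against 11 of 21 (median 0.03) without overexpression 1. KRT19, a simple-epithelium keratin, and CLDN4, a tight junction claudin, had the highest control levels in that list, and CLDN4 averaged 115 ± 3.98 FPKM over the controls against 124 ± 4.82 with overexpression (SD, n = 3 each; log2 0.06, SE 0.10). Of the mesenchymal genes 21 of 31 were positive (median 0.14), and 9 of 31 without overexpression 1 (median -0.05). S100A4, a calcium-binding protein of motile cells, had 2011 ± 38.1 against 1929 ± 205 FPKM (SD, n = 3 each; log2 -0.10, SE 0.13), and VIM had a log2 of -0.04 (SE 0.11). In 11 of these 31 genes overexpression 1 was at least 2-fold above every other library, against 6.34% of all tested genes.

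Regulators that act beside or upstream of the members were described in the same way. Of the other transcription factors of the mesenchymal state, 15 of 21 were positive (median 0.05), but 9 of 21 (median -0.00) once overexpression 1 was left out. The most highly expressed of them, the AP-1 subunit FOSL1, had 149 ± 4.58 against 150 ± 6.37 FPKM (SD, n = 3 each; log2 -0.03, SE 0.08). The corepressors and cofactors that SNAI, TWIST and ZEB proteins recruit had 14 of 26 positive (median 0.03), and 12 of 26 without overexpression 1 (median -0.01). Among them was PRMT5, an arginine methyltransferase, at -0.05 (SE 0.10). HDAC3, a histone deacetylase, had -0.21 (SE 0.08, unadjusted p 0.0336, adjusted p 0.994 with edgeR). Enzymes of the turnover and phosphorylation of these factors had 13 of 26 positive (median -0.00), and 10 of 26 without overexpression 1 (median -0.03), with the ubiquitin ligase STUB1 at -0.07 (SE 0.17) and the kinase GSK3A at -0.13 (SE 0.09). For the TGF-beta inputs, which induce EMT, 13 of 17 were positive (median 0.14), and 8 of 17 without overexpression 1 (median -0.01). TGFB1, the ligand, had 69.0 ± 4.03 against 64.8 ± 3.76 FPKM (SD, n = 3 each; log2 -0.14, SE 0.08), and SMAD3, its signal transducer, had -0.18 (SE 0.10).

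Among the adhesion partners, catenins and cadherin-binding proteins had 10 of 17 positive (median 0.05), and 6 of 17 without overexpression 1 (median -0.02), with CTNNA1, alpha-catenin, at 23.6 ± 3.68 against 23.4 ± 5.44 FPKM (SD, n = 3 each). EXOC3, a subunit of the exocyst, had 9.78, 9.85 and 9.24 FPKM in the controls, against 7.02, 7.77 and 5.82 FPKM with overexpression, so its groups did not overlap. Its log2 fold change was -0.54 (SE 0.09) with an unadjusted p of 0.000426 and an adjusted p of 0.994 with edgeR, and it was -0.54 without overexpression 1. The other cadherins had 3 of 3 tested genes positive, (median 0.19), and 2 of 3 without overexpression 1 (median 0.23), led in level by CDH24 with a log2 of 0.02 (SE 0.13). Among the fibronectin receptors and matrix assembly genes 10 of 22 were positive (median -0.03), against 9 of 22 (median -0.01) without overexpression 1, and the syndecan SDC4 had -0.06 (SE 0.11). Cell markers gave 4 of 8 positive for the MDA-MB-231 line (median 0.04), 4 of 8 for luminal or other epithelial cells (-0.00), 7 of 9 for basal or myoepithelial cells (0.16) and 1 of 3 for leukocytes and endothelium (-0.03). Without overexpression 1 these counts were 1 of 8 (median -0.05), 4 of 8 (0.01), 6 of 9 (0.17) and 1 of 3 (-0.01). Fibroblast markers, members included, gave 9 of 11 positive and a median of 2.30, against 4 of 11 and -0.22 when overexpression 1 was left out.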

How the data were processed

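Messenger RNA of 3 overexpressing and 3 control libraries was analysed. Per the submitters' processing notes, cutadapt 1.9, HISAT2 2.0.4, StringTie 1.3.4d and edgeR were used with the build hg38, and the annotation release and strandedness are not given in the sources used here. The deposited expected counts are whole numbers, not scaled between libraries, and low values pile up at multiples of 4, so counts carry no interval here. The deposited FPKM values are the authors' own, per the file headers, whose library names match the labels.

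Genes were tested with edgeR 4.0.16 in R 4.3.3 (quasi-likelihood, TMM scaling, filterByExpr with a minimum count of 10, group as the only term, 2-sided), with Benjamini-Hochberg adjustment over 15951 genes at 0.05. The common dispersion was 0.0943. Alternatives used RLE or upper-quartile scaling, no filter, DESeq2 1.42.0, limma 3.58.1 on log2(FPKM + 1) or log2(FPKM + 0.1), a replicate block, counts divided by 4, and each library left out with the same genes kept. A GC offset per library (lowess span 0.3, with a GC value for 96.2% of tested genes from GENCODE 29) was chosen after seeing the data. The members and the other gene lists, 15 lists in all with the members' own (265 of 294 entries had a row), were chosen with earlier results of these data known. Named genes are the members, set reference genes, overlapping rows, nearest profiles of SNAI2, ZEB1 and FN1, and genes among the 4 with the highest control mean in each list; others, such as CDH13, were chosen after their values were seen.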

Additional observations from a re-analysis of the deposited data

How the results depend on the processing

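None of the 6 tested members passed under any of the 15 alternatives. The count of all genes past the test was 0 with edgeR and all 6 libraries, 12 with DESeq2, 1 with limma on log2(FPKM + 0.1), and between 0 and 4 when 1 library was left out. It was 4 without overexpression 1 and 1 without overexpression 2. The sign of ZEB2 changed with upper-quartile scaling (-0.0167) and with the GC offset (-0.20). When 1 library was left out, log2 fold changes ranged from -0.18 to 1.47 for SNAI2, from -0.47 to 0.83 for ZEB1, from -0.31 to 0.21 for ZEB2, from -0.22 to 0.15 for CDH11, from -0.0579 to 1.23 for FN1 and from -0.49 to -0.18 for SNAI1. The negative values of SNAI2, ZEB1 and FN1 came without overexpression 1. Without control 1, ZEB2 was at -0.10 and CDH11 at 0.05, and without overexpression 3 CDH11 was at 0.15. Without overexpression 3 the unadjusted p of SNAI2 and FN1 was under 0.05 (log2 1.47 and 1.22, adjusted p 0.435 and 0.433 with edgeR). In that fit 1812 of all 15951 genes had an unadjusted p under 0.05, against 611 with all 6 libraries. The number of members whose groups do not overlap was between 0 and 1, being 1 without control 1 (SNAI1) and 1 without overexpression 3 (CDH2). The share of all tested genes was not taken for these splits, and was 15.4% without overexpression 1. For CDH2 the split rests on 10 counts in overexpression 2 against 9 and 10 in control 2 and 3. Of the 15 lists, the members' own included, 11 had a positive median with all 6 libraries, between 4 and 14 when 1 library was left out, and 4 without overexpression 1. The median of the fibroblast marker list, 2.30 with edgeR, was 0.12 and 0.58 with limma at pseudocounts of 1 and 0.1, 0.81 with the replicate block, 0.21 with counts divided by 4 and -0.22 without overexpression 1. With counts divided by 4 the filter was applied anew and kept 13097 genes, so that median need not cover the same markers. Between libraries of equal replicate number the correlations of deviations were -0.03, 0.04 and 0.07, and not every library was most like the one with its own number. These values show no clear pairing, but with so few libraries they cannot exclude a weak one. With the replicate block 0 genes passed, 438 had an unadjusted p under 0.05 against 611 without it, and the log2 fold changes of SNAI2 and FN1 were 0.63 and 0.58.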
